A study of Rattus norvegicus with 4 samples.

Results

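A set of 9 genes for receptors of dopamine and noradrenaline was followed in RNA-seq data of carotid bodies (CBs) from neonatal and adult rats. The members were taken by gene name from the deposited table and comprised 3 dopamine receptor genes (Drd1, Drd2 and Drd4) and 6 adrenergic receptor genes (Adra1b, Adra1d, Adra2a, Adra2b, Adra2c and Adrb1), 9 of the 32883 genes listed. Neonates were Sprague Dawley rats aged 5 days and adults were Sprague Dawley rats aged 21 days, with 2 libraries per age and 4 in all. Per the labels, each library pooled the CBs of 6 pups or of 3 adults, and no treatment or gene alteration was given for either age. Day 21 is about the age of weaning, and the study's text states that females and males were both included and names larger pools and more replicates than the labels. Library totals ran from 36286191 to 39476110 estimated counts, so 1 CPM, the unit of counts scaled to the library total, corresponded to between 36.3 and 39.5 counts and 3 counts, the limit that a count of 0 allows, to between 0.0760 and 0.0827 CPM. Limits and intervals of this kind cover counting error only.

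The CB senses blood oxygen where the carotid artery divides. Its glomus cells make, store and release dopamine, and they carry the D2 receptor, which couples to inhibitory G proteins and acts as an autoreceptor on the releasing cell. D1 receptors couple to the stimulatory G proteins and D4 belongs with D2. Alpha1-adrenergic receptors couple to Gq and contract vascular smooth muscle, alpha2-adrenergic receptors couple to Gi and damp transmitter release, and beta1-adrenergic receptors couple to Gs and raise cyclic AMP. Noradrenaline reaches the organ from sympathetic nerve endings of the superior cervical ganglion.

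Read levels of the members covered a wide range. Drd2 was between 47.6 and 81.5 CPM, Adra2a between 4.69 and 11.3 CPM, Adra2b and Adra1d between 1.03 and 2.31 CPM, and the remaining 5 members at 1.38 CPM or less in all libraries. Of the 9 members, 4 (Drd2, Adra1d, Adra2a and Adra2b) reached 1 CPM in 2 or more libraries, which was the filter for the test, and the other 5 were read from a fit of all genes with a count. Transcript lengths were not used here, so levels are compared between ages and not between genes. The estimated counts of all 9 members were exactly whole, with no tolerance, in every library before rounding.

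**Figure D1:**
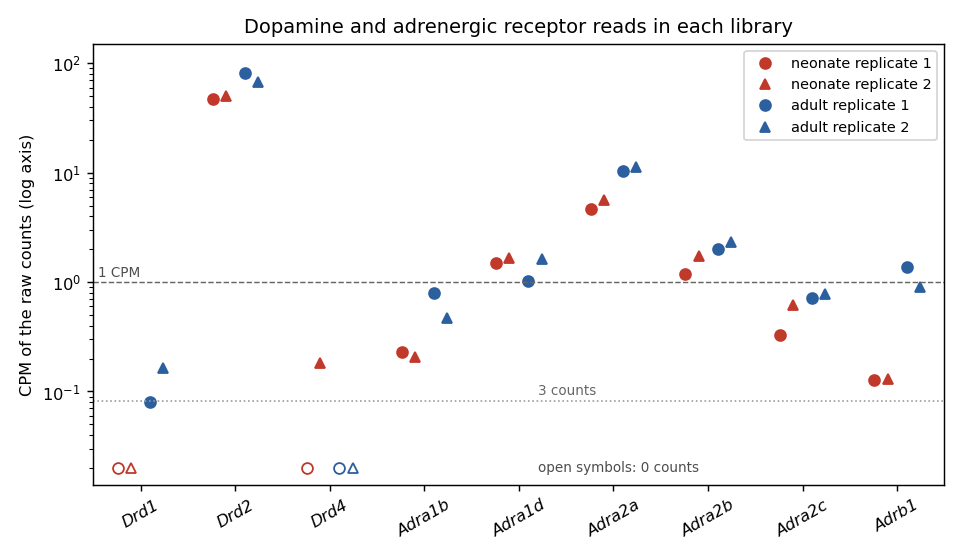
CPM of the raw counts (log axis) for each of the 9 receptor genes, with neonates in red, adults in blue, circles for replicate 1 and triangles for replicate 2. Open symbols near the bottom stand for 0 counts, the dashed line is 1 CPM and the dotted line is 3 counts in the smallest library. Drd2 and Adra2a are lower in both neonatal libraries than in both adult libraries, and Adrb1 is at 5 counts in each neonatal library against 52 and 33 in the adult libraries.

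At an adjusted p under 0.05, Drd2, Adra2a and Adrb1 were lower in neonates than in adults, and no member was higher. Adrb1 was the one member that also reached a fold change of 2, the level used for a call. All adjusted p come from the quasi-likelihood test of edgeR, adjusted by Benjamini and Hochberg's method over every gene in the fit. Over the 13843 genes that passed the filter, 13.2% were called lower and 7.68% higher in neonates, and 31.1% were lower and 31.2% higher by the adjusted p alone. In the fit of the 19411 genes with any count, from which Adrb1 was read, 10.2% were called lower and 5.84% higher, and 22.8% were lower by the adjusted p alone. Against these backgrounds stand 1 of 9 members called lower and 3 of 9 lower by the adjusted p alone, of which 2 were among the 4 that passed the filter. Such shares of so few genes do not set the receptors apart from other genes. The log2 fold change (log2FC) is that of neonates over adults, and a negative log2FC stands for a lower level in neonates.

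Without regard to a test, both neonatal libraries had a lower CPM than both adult libraries for 7 of the 9 members, and for 3 of the 4 that passed the filter. The same held for 46.0% of all genes with a count and for 55.3% of those that passed the filter. After TMM scaling, which corrects for the makeup of each library, 5 of the 9 members and 2 of the 4 remained apart with neonates lower, against 35.0% and 41.7% of the genes. The 2 members that this scaling moved into overlap were Adra2b and Adra2c. Drd4 overlapped on both scales, and Adra1d overlapped in CPM and was higher in neonates after TMM scaling.

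RefSeq promoter sequences of the assembly GRCr8 matched all 9 members by symbol. Those of the 3 genes that passed the test are shown with that of Drd1, which has the fewest CpG sites of the 9, for contrast. Each run of 300 bases goes from 250 bases before to 50 bases after the annotated start, 5′ to 3′ on the gene's strand, and capitals mark CG dinucleotides. In Adra2a the 50 bases after that start begin with atg, the letters of a start codon. Its annotated start may thus be that of the coding sequence, and its window may not hold the promoter.

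Drd2 (chr8:58605153-58605452, plus strand): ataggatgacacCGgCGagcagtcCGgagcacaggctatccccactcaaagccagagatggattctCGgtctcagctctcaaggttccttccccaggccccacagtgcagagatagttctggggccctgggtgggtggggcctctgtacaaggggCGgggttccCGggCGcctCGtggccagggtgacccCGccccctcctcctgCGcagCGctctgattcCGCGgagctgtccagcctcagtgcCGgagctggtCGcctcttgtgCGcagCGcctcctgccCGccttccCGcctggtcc

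Adra2a (chr1:263066530-263066829, plus strand): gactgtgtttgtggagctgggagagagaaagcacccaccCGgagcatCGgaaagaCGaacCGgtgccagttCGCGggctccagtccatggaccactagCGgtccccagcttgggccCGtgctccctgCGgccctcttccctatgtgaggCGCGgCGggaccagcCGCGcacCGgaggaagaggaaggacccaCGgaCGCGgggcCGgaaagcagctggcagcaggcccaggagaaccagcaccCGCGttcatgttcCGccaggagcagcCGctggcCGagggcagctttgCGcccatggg

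Adrb1 (chr1:265776853-265777152, plus strand): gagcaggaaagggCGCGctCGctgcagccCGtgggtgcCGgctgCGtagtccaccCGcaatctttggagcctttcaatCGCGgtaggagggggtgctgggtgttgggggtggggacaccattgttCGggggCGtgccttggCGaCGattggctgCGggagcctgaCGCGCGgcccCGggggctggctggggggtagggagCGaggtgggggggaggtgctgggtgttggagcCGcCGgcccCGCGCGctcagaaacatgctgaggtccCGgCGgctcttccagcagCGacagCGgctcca

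Drd1 (chr17:10546354-10546653, plus strand): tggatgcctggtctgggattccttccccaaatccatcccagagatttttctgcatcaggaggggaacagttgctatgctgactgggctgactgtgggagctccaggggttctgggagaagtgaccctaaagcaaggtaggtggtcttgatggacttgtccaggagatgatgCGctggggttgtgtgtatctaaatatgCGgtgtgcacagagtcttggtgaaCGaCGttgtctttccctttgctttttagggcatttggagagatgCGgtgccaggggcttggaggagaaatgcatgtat

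CG dinucleotides numbered 19 in the Drd2 window, 25 in Adra2a, 28 in Adrb1 and 5 in Drd1, against a median of 7 over 33469 promoter windows. Fewer than in Drd2 were found in 74.3% of all windows, fewer than in Adra2a in 83.4% and fewer than in Adrb1 in 87.3%. Fewer than in Drd1 were found in 38.0%, so its window is not unusual among all promoters. The other members held between 10 (Drd4) and 43 (Adra2c), so the members that passed the test did not stand apart from those that did not. The GC box letters GGGCGG, searched on both strands, were in 5 of the 9 windows (Drd2, Drd4, Adra1b, Adra2b and Adra2c) and in 33.1% of all windows, and in Drd2 they began 98 and 61 bases before the start. TGACG, the core letters of a cyclic AMP response element, was in the windows of Drd4 and Adrb1 and in 21.2% of all. The full palindrome TGACGTCA, in 1.83% of all windows, and TATAAA, in 14.2%, were in none of the 9. These counts and matches describe the letters in the window only, and the Adra2a window may not be its promoter.

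Drd2, the inhibitory autoreceptor, had 47.6 and 50.7 CPM in neonate replicates 1 and 2 and 81.5 and 67.7 CPM in adult replicates 1 and 2. Both neonatal libraries were below both adult libraries, and the adult libraries differed more from each other (SD 9.73 CPM) than the neonatal libraries did (SD 2.19 CPM). By edgeR the log2FC was -0.36 (standard error 0.11, adjusted p = 0.018), or 1.28-fold higher in adults. Without adult replicate 1, the library with the higher level, it was -0.21 with an adjusted p of 0.20 in edgeR, so passing the test rests on that library, and over all alternatives the adjusted p ran from 0.0015 to 0.20. In bulk tissue, fewer cells of a type and less RNA per cell cannot be told apart.

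The size of the Drd2 difference moved with the scaling. Mitochondrially encoded genes held 18.7% and 15.6% of neonatal counts against 9.06% and 9.08% of adult counts, and TMM factors were 0.902 and 0.935 against 1.08 and 1.10. Scaled to library size alone, all genes tested had a median log2FC of -0.25 in place of -0.0029, and Drd2 was at -0.60 (adjusted p = 0.0015 by edgeR). Relative to that median, it was lower in neonates under both scalings.

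Drd2 was also set against genes of the cells that carry it. Tyrosine hydroxylase (Th), the first enzyme of dopamine synthesis, had 917 and 781 CPM in neonates and 1517 and 1242 CPM in adults, a log2FC of -0.45 (adjusted p = 0.016 by edgeR). For every 100 Th reads there were 5.19 and 6.49 Drd2 reads in the neonatal libraries and 5.37 and 5.45 in the adult libraries. The adult ratios lay between the neonatal ones, so the ages overlapped on this measure. Per 1000 reads of 10 glomus cell markers there were 8.81 and 11.7 Drd2 reads in neonates and 13.0 and 12.9 in adults, without overlap. The summed level of these markers, 5402 and 4333 CPM in neonates and 6253 and 5248 CPM in adults, overlapped between ages. That overlap rests on Chga, which encodes chromogranin A of secretory granules and had 1552 CPM in neonate replicate 1 against 740, 848 and 723 CPM in the other libraries. The same library held the most reads of the parathyroid gene Pth, 1595 CPM against 194 CPM in neonate replicate 2 and 0 in the adult libraries. The part of parathyroid tissue in the Chga value was not tested. Without Chga, a choice made after the values were seen, the sums were 3850 and 3593 CPM in neonates and 5405 and 4525 CPM in adults, with neonates lower, and Drd2 had 12.4 and 14.1 reads per 1000 marker reads in neonates and 15.1 and 15.0 in adults. Of the 10 markers, 3 were lower in neonates, 3 were higher and 4 did not pass the test, with a median log2FC of -0.048 and none at 0 in any library, so the labelled tissue carried its defining markers at both ages. The part of glomus cell content in the Drd2 difference was not tested.

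**Figure D2:**
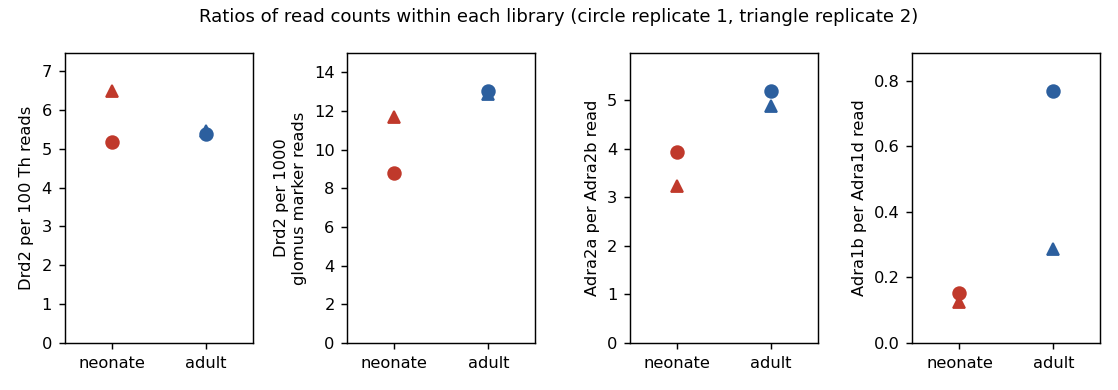
Ratios of read counts within each library, with neonates in red, adults in blue, circles for replicate 1 and triangles for replicate 2; every axis starts at 0. Drd2 per 100 Th reads overlaps between ages (5.19 and 6.49 against 5.37 and 5.45), while Adra2a per Adra2b read (3.94 and 3.24 against 5.19 and 4.88) and Adra1b per Adra1d read (0.153 and 0.125 against 0.769 and 0.288) do not.

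Drd1, whose receptor stimulates adenylyl cyclase, had 0 counts in both neonatal libraries and 3 and 6 counts in the adult libraries. The 95% Poisson intervals of the neonatal libraries, which ended at 0.0934 and 0.0958 CPM, overlapped those of the adult libraries, which began at 0.0164 and 0.0607 CPM, and the adjusted p was 0.14 by edgeR in the fit of all genes with a count. Drd4 had 7 counts in neonate replicate 2 and 0 counts in the other 3 libraries, with an adjusted p of 0.22 by edgeR, so its reads came from 1 library. The other dopamine receptor genes, Drd3 and Drd5, had 0 counts in all 4 libraries, which allows up to 0.0827 CPM. At this depth Drd2 was the sole dopamine receptor gene with more than 7 counts in any library.

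Among the alpha2 receptors, Adra2a had 4.69 and 5.64 CPM in neonates and 10.3 and 11.3 CPM in adults. Both neonatal libraries were far below both adult libraries, and the gap exceeded the spread within an age (SD 0.671 and 0.709 CPM). Per 1000 reads of the 10 glomus cell markers there were 0.867 and 1.30 Adra2a reads in neonates and 1.65 and 2.15 in adults. Without Chga there were 1.22 and 1.57 against 1.91 and 2.50, and the ages overlapped on neither measure. The log2FC of Adra2a was -0.82 (standard error 0.20, adjusted p = 0.0063 by edgeR), or 1.77-fold higher in adults. Scaled to library size alone it was -1.06 (adjusted p = 0.0018 by edgeR) and so past 2-fold. Without adult replicate 2 it was -0.76 with an adjusted p of 0.060, and the adjusted p by edgeR, DESeq2 or limma-voom was between 0.0017 and 0.060 over all alternatives.

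Adra2b, the second alpha2 subtype, had 1.19 and 1.74 CPM in neonates and 1.99 and 2.31 CPM in adults. The ages did not overlap in CPM, which was so, with neonates lower, for 55.3% of the genes tested, but they overlapped after TMM scaling, at 1.32 and 1.86 against 1.84 and 2.12. Its log2FC was -0.31 (standard error 0.35, adjusted p = 0.46 by edgeR). It was -0.083 without neonate replicate 1 and -0.57 without neonate replicate 2. Adra2c, the third subtype, had 13 and 24 counts in neonates and 27 and 28 counts in adults, or 0.329, 0.623, 0.715 and 0.772 CPM, and a log2FC of -0.43 (standard error 0.62, adjusted p = 0.60 by edgeR). The 3 alpha2 genes thus had negative estimates, of which that of Adra2a passed the test.

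The ratio between the subtypes does not depend on the scaling. For each Adra2b read there were 3.94 and 3.24 Adra2a reads in neonates and 5.19 and 4.88 in adults, without overlap and with a log2 difference of -0.49. With 2 libraries per age the smallest two-sided p of an exact permutation test is 0.333, so the ratio is given without a test. For each Adra2c read there were 14.2 and 9.04 Adra2a reads in neonates and 14.4 and 14.6 in adults, a narrow gap to the first neonatal library.

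The 2 alpha1 receptor genes had estimates of opposite sign. Adra1b had 9 and 8 counts in neonates and 30 and 17 counts in adults, or 0.228 and 0.208 against 0.794 and 0.468 CPM. Neonates were lower without overlap, as were 46.0% of all genes with a count, and the log2FC was -1.31 (standard error 0.77, adjusted p = 0.21 by edgeR). The 95% Poisson interval of neonate replicate 1, 0.104 to 0.433 CPM, reached into that of adult replicate 2, 0.273 to 0.750 CPM. Adra1d had 1.49 and 1.66 CPM in neonates and 1.03 and 1.63 CPM in adults. The ages overlapped in CPM, though not after TMM scaling (1.66 and 1.78 against 0.957 and 1.49), and the log2FC was 0.49 (standard error 0.38, adjusted p = 0.28 by edgeR). For each Adra1d read there were 0.153 and 0.125 Adra1b reads in neonates and 0.769 and 0.288 in adults, without overlap. The adult ratios differed from each other by more than the lower of them exceeded the neonatal ones, and neither gene passed the test on its own.

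Alpha1 receptors are known from vascular smooth muscle, and the level of smooth muscle and pericyte markers differed between the ages. The sum of 8 such markers was 1133 and 1212 CPM in neonates and 2228 and 2409 CPM in adults, with 5 of the 8 lower in neonates and 1, Pdgfrb, higher (edgeR, adjusted p under 0.05). Most of that gap came from the pericyte gene Rgs5, at 272 and 247 CPM in neonates and 1088 and 1062 CPM in adults, and the other 7 summed to 861 and 965 against 1140 and 1346 CPM. The receptors were therefore set against the markers with and without Rgs5, the second chosen after the values were seen. Both marker sums were lower in neonates, which raises any neonatal ratio to them, and the ratios are given without a test. Per 1000 reads of all 8 markers there were 1.32 and 1.37 Adra1d reads in neonates and 0.463 and 0.675 in adults. Per 1000 reads of the 7 there were 1.74 and 1.72 against 0.906 and 1.21, so Adra1d was higher in neonates without overlap on both. Adra1d itself did not pass the test (adjusted p = 0.28 by edgeR). For Adra1b, Adra2a and Adra2b the outcome turned on Rgs5. Adra1b overlapped with all 8 markers (0.201 and 0.171 against 0.356 and 0.195) and was lower in neonates without Rgs5 (0.265 and 0.215 against 0.697 and 0.348). Adra2a likewise overlapped with all 8 (4.14 and 4.65 against 4.62 and 4.69) and was lower in neonates without Rgs5 (5.44 and 5.84 against 9.03 and 8.39). Adra2b was higher in neonates with all 8 (1.05 and 1.44 against 0.891 and 0.961) and overlapped without Rgs5 (1.38 and 1.80 against 1.74 and 1.72). The part of these cells in the receptor values was not tested.

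Adrb1, the beta1 receptor gene, had 5 counts in each neonatal library and 52 and 33 counts in the adult libraries, or 0.127 and 0.130 against 1.38 and 0.909 CPM. The 95% Poisson intervals did not meet: those of the neonatal libraries ended at 0.296 and 0.303 CPM and those of the adult libraries began at 1.03 and 0.626 CPM. In the fit of all genes with a count, the log2FC was -2.91 (standard error 0.68, adjusted p = 0.0065 by edgeR), or 7.51-fold higher in adults. It missed the filter for the main test because 1 library, adult replicate 1, reached 1 CPM. Without that library the log2FC was -2.56 with an adjusted p of 0.14, and without adult replicate 2 it was -3.19 with an adjusted p of 0.032, both by edgeR. Over all alternatives the estimate stayed between -3.19 and -2.56 and the adjusted p between 0.0027 and 0.14. Per 1000 smooth muscle and pericyte marker reads, Adrb1 had 0.112 and 0.107 reads in neonates and 0.618 and 0.378 in adults. Without Rgs5 it had 0.147 and 0.135 against 1.21 and 0.675, so the ages did not overlap on either measure. Adrb1 was not set against markers of any other cell type. Of the adipocyte markers, Adipoq (log2FC -2.51), Plin1 (-2.30) and Cidec (-1.95) were also lower in neonates. Fabp4 (0.51) was higher and Ucp1 (-0.32) did not pass the test. The part of adipocytes in the Adrb1 difference was not tested.

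**Figure D3:**
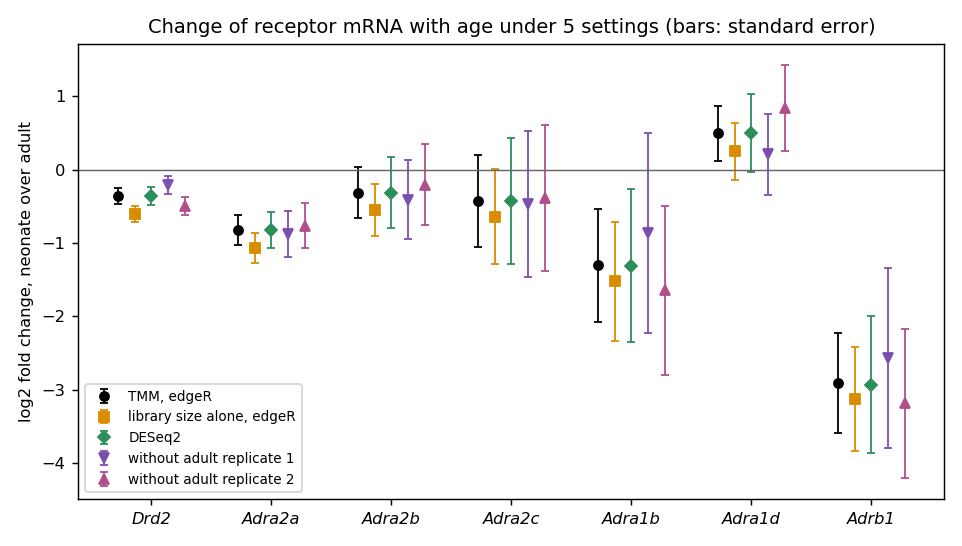
Log2 fold change of neonates over adults (vertical axis) for the 7 members with reads at both ages, with bars for the standard error, under TMM scaling in edgeR, library size alone, DESeq2 and without each adult library. Adrb1 lies between -3.19 and -2.56 and Adra2a between -1.06 and -0.76 under these settings, while the bars reach past 0 under 4 of the 5 settings for Adra2b and under all 5 for Adra2c.

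Markers of other tissues also moved between the libraries. Of 9 markers of sympathetic neurons, all were higher in neonates (edgeR, adjusted p under 0.05) and 6 were past 2-fold, with sums of 2153 and 1829 CPM in neonates and 1355 and 1104 CPM in adults. Of 5 adipocyte markers, 3 were lower in neonates and 1, Fabp4, was higher, with overlapping sums of 127 and 174 CPM in neonates and 128 and 180 CPM in adults. Those sums rest on Fabp4, at 120 and 166 CPM in neonates and 101 and 137 CPM in adults. The 3 that were lower were Adipoq (log2FC -2.51), Plin1 (-2.30) and Cidec (-1.95), so the overlap of the sums does not describe them. Parathyroid markers (Pth, Gcm2 and Casr) summed to 1616 and 197 CPM in the neonatal libraries and to at most 0.0551 CPM in the adult libraries, where Pth and Gcm2 were at 0. Without neonate replicate 1, the library with the most parathyroid reads, the log2FC was -0.34 for Drd2 (adjusted p = 0.041), -0.72 for Adra2a (adjusted p = 0.012) and -2.92 for Adrb1 (adjusted p = 0.018), all by edgeR. Macrophage markers were lower in neonates for 3 of 5 and higher for 1, endothelial markers were lower for 3 of 5, fibroblast markers for 3 of 5, and markers of sustentacular and Schwann cells were lower for 3 of 7 and higher for 2. Skeletal muscle markers were low at both ages, with sums of 6.69 to 10.4 CPM, and lymphocyte markers summed to 2.51 and 3.06 CPM in neonates and 9.13 and 9.15 CPM in adults. That lymphocyte sum rests on Cd4 (0.912 and 0.857 against 7.57 and 7.69 CPM), without which it was 1.60 and 2.21 CPM in neonates and 1.56 and 1.46 CPM in adults, and of the 2 lymphocyte markers tested Cd4 was lower and Cd79a higher in neonates. The part of these cell types in the receptor values was not tested.

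The G proteins that carry the signal of these receptors were taken as a fixed list of 10 alpha subunit genes, of which 9 were tested. At an adjusted p under 0.05 by edgeR, 4 were lower in neonates, 3 of them past 2-fold, 1 was higher and 4 did not pass, with a median log2FC of -0.34 against -0.0029 over all genes tested. Of all genes tested, 31.1% were lower and 31.2% higher at that adjusted p, and 13.2% were also past 2-fold and lower. These shares are the background for each list that follows, and lists this short are not set apart from it. Gnaq, the alpha subunit of Gq, had 6.94 and 8.36 CPM in neonates and 24.6 and 29.1 CPM in adults, a log2FC of -1.57 (adjusted p = 3.3e-05 by edgeR). Its close relative Gna11 was at -1.08 (adjusted p = 0.00020). Gna14, another gene of the Gq family, was at -0.74 and did not pass the test (adjusted p = 0.11 by edgeR).

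Of the inhibitory subunits, which couple to D2 and alpha2 receptors, Gnai1 had 11.3 and 11.7 CPM in neonates and 30.1 and 32.1 CPM in adults, a log2FC of -1.19 (adjusted p = 3.2e-05 by edgeR). Gnai3 was at -0.34 (adjusted p = 0.0046) and Gnai2 at -0.14 (adjusted p = 0.17). Under library size alone Gnai2 (-0.39, adjusted p = 0.0048 by edgeR) and Gna14 (-0.98, adjusted p = 0.042 by edgeR) also passed. Gnao1 and Gnaz, at 0.039 and 0.048 with adjusted p of 0.80 and 0.85 by edgeR, had the opposite sign when scaled to library size alone. Gnas, the stimulatory subunit used by D1 and beta receptors, was the one that was higher in neonates, at 2094 and 1972 CPM against 1776 and 1336 CPM and a log2FC of 0.63 (adjusted p = 0.0043 by edgeR). Gnas has 2 entries with fractional counts in the table, so its reads could be split between them, and values are those of the entry holding more reads. Its log2FC was 0.39 (adjusted p = 0.039 by edgeR) under library size alone. Gnal, the olfactory form of the stimulatory subunit, had between 18 and 31 counts and was below the filter.

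Receptor kinases phosphorylate active receptors and arrestins then uncouple them. Of 7 such genes tested, 3 were higher and 2 lower in neonates (edgeR, adjusted p under 0.05), with a median log2FC of -0.23. Grk3, which phosphorylates many receptors of this class, had 4.91 and 5.32 CPM in neonates and 28.5 and 28.4 CPM in adults, a log2FC of -2.23 (adjusted p = 4.2e-06 by edgeR). Grk5 was also lower, at -0.40 (adjusted p = 0.049). Grk4 was higher in neonates, with 9.52 and 11.8 CPM against 5.53 and 6.31 CPM and a log2FC of 1.09 (adjusted p = 0.0013 by edgeR). Grk6 was at 0.40 (adjusted p = 0.0022) and Arrb2 at 0.58 (adjusted p = 0.0026). Grk2, the most studied kinase of beta receptors, was at -0.23 (adjusted p = 0.050, just over the threshold), and Arrb1 was at -0.23 (adjusted p = 0.36), both by edgeR. Under library size alone Grk6 was at 0.15 (adjusted p = 0.15 by edgeR) and Grk4 at 0.85, under 2-fold, while Grk2 passed, at -0.48 (adjusted p = 0.0022 by edgeR). The kinase genes moved in both directions, as did the genes tested as a whole.

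**Figure D4:**
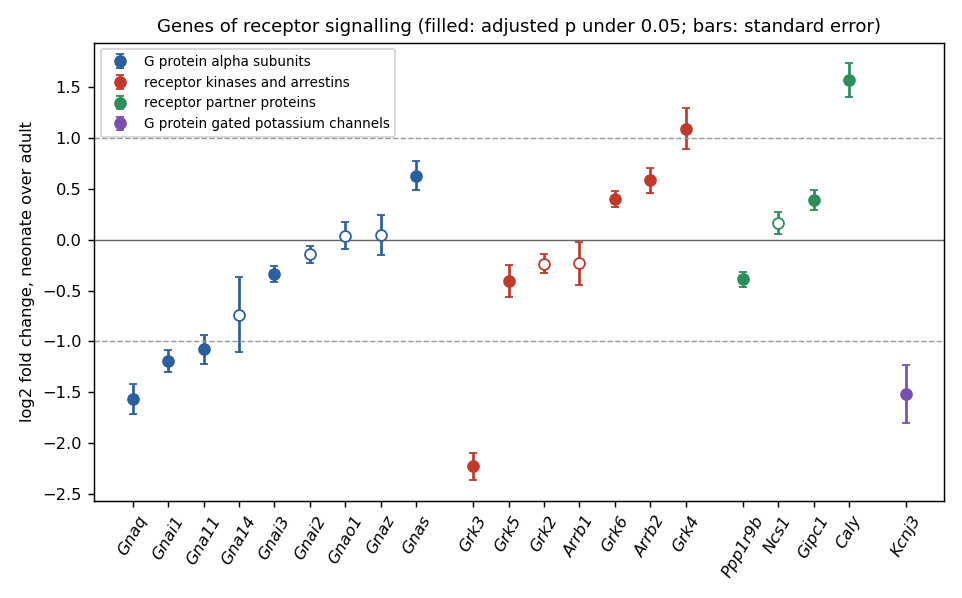
Log2 fold change of neonates over adults (vertical axis) for the tested genes of 4 signalling lists, coloured by list and sorted by value within it, with bars for the standard error, filled points for an adjusted p under 0.05 and dashed lines at 2-fold. Grk3 (-2.23), Gnaq (-1.57) and Kcnj3 (-1.51) lie lowest and Caly (1.57) and Grk4 (1.09) highest.

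Of 5 genes on the list of receptor partner proteins, 4 were tested, with 2 higher and 1 lower in neonates. Caly, which encodes calcyon, had 55.1 and 43.2 CPM in neonates and 22.4 and 17.0 CPM in adults, a log2FC of 1.57 (adjusted p = 6.5e-05 by edgeR). Gipc1 was at 0.39 (adjusted p = 0.0069) and Ppp1r9b, which encodes spinophilin, at -0.39 (adjusted p = 0.0019). Ncs1, a calcium sensor that binds D2 receptors, was at 0.17 (adjusted p = 0.21 by edgeR) and was negative when scaled to library size alone. Gipc1 did not pass under library size alone (0.14, adjusted p = 0.21 by edgeR). Ppp1r1b, which encodes DARPP-32, a phosphatase inhibitor downstream of D1 receptors, had 6 and 1 counts in neonates and 32 and 62 counts in adults and was below the filter.

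The inwardly rectifying potassium channels that are gated by G proteins are opened by Gi-coupled receptors such as D2 and alpha2A. Of 4 such genes, Kcnj3 alone passed the filter, with 1.55 and 2.34 CPM in neonates and 6.62 and 6.50 CPM in adults, a log2FC of -1.51 (standard error 0.28, adjusted p = 0.0016 by edgeR). Kcnj5 had 7 and 4 counts in neonates and 16 counts in each adult library, Kcnj9 had 13 and 2 counts in neonates and 5 and 3 in adults, and Kcnj6 had 0 counts in all 4 libraries.

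The genes that supply and clear the ligands moved in both directions as well. Of 10 tested, 4 were higher and 3 lower in neonates (edgeR, adjusted p under 0.05), with a median log2FC of 0.092. The noradrenaline-making enzyme Dbh (1.31, adjusted p = 0.00058) and the noradrenaline transporter Slc6a2 (1.65, adjusted p = 5.0e-05) were higher in neonates, and both are also on the list of sympathetic neuron markers. Slc22a3, a low-affinity catecholamine transporter, had 0.329 and 0.208 CPM in neonates and 2.96 and 4.91 CPM in adults, a log2FC of -3.61 (adjusted p = 0.00017 by edgeR).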

How the data were processed

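CB libraries (2 per age) were made from pooled total RNA by poly A selection and read from both ends. The authors trimmed reads, aligned them with STAR, quantified them with Salmon (version 1.5.2 and build Rnor 6.0 per the submitters' processing notes) and summed transcripts to genes. The deposited values are estimated counts per gene, not normalized or filtered. Where nothing says that pools were separate litters, p-values measure the spread between these libraries only.

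Estimated counts were rounded, 636 genes annotated as other than protein-coding in a GRCr8 gene table were removed by symbol, and genes reaching 1 CPM in 2 or more libraries were tested. Ages were compared by edgeR 4.0.16 (quasi-likelihood, TMM, no covariates) in R 4.3.3, and a gene was called at an adjusted p under 0.05 and at least 2-fold. Standard errors are the log2 fold change divided by the square root of F. Members under the filter were read from the same fit without it. CPM are raw counts over the library total. The fit was tested on counts simulated for genes that passed the filter, with the same spread for every gene. That run does not cover the members under the filter, Adrb1 among them. Members, gene lists and marker lists were chosen with earlier results of these data known. Named genes are the members, genes of the lists and, for likeness, the 3 nearest genes to a member. Alternatives were RLE factors, library size alone, TMM without ribosomal protein and mitochondrially encoded genes, no filter, a mean of 5 CPM or more, no removal by gene type, no minimum fold, DESeq2 1.42.0 without independent filtering, limma-voom (limma 3.58.1), a replicate block and each library left out.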

Additional observations from a re-analysis of the deposited data

How the results depend on the processing

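No member's estimate changed sign under any alternative that could be fitted, and the estimates of Adra1b, Adra1d, Adra2b, Adra2c and Drd4 had an adjusted p above 0.05 throughout. Drd1 passed with limma-voom (-3.11, adjusted p = 0.043). Leaving out each library in turn gave log2 fold changes from -0.50 to -0.21 for Drd2, from -0.92 to -0.72 for Adra2a and from -3.19 to -2.56 for Adrb1, and Drd2 and Adrb1 no longer passed the test without adult replicate 1, nor Adra2a without adult replicate 2, where 1 library is left in an arm and is assumed to vary like the others. The 1 member called lower became 3 with no minimum fold, 2 with library size alone, 2 with limma-voom, 0 with a mean of at least 5 CPM, which leaves fewer genes, and 0 to 1 with a library left out. Genes called higher, 1063, became 4325 with no minimum fold, 704 with library size alone and 654 with a mean of at least 5 CPM, and genes called lower, 1822, became 4300 and 1169 with the first and last of these. Of the genes called, 36.8% were higher, and 21.6% with library size alone. Drd4 could not be fitted without neonate replicate 2, which holds all its reads, and members under 5 CPM could not be fitted with that filter.

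The study's text states that part of the litter was raised to day 21, so the ages may share litters. It ties no replicate number to a litter. Deviations of same-numbered libraries were not correlated over genes (r = -0.015), which cannot show whether litters were shared. With the replicate block, 1071 genes were called higher and 1866 lower in place of 1063 and 1822, 1 member was called lower, and Drd2 was at -0.35, Adra2a at -0.82 and Adrb1 at -2.88, with no change in which members passed. At this depth, members under 1 CPM rest on fewer than 40 counts in most libraries.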

Other observations

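The genes whose 4 levels ran most like those of a member were found by the root mean square difference of log2 CPM, centred on each gene's mean over the 4 libraries. The rule had been set for members called and was widened, after the values were seen, to those that passed the adjusted p alone. For Adra2a they were AABR07028997.1 (0.010), Suz12 (0.015) and Map2k4 (0.017), for Drd2 AABR07059632.3 (0.021), Slc41a2 (0.022) and Rnf103 (0.024), and for Adrb1 AABR07025140.1 (0.053), Prkaa2 (0.066) and Kcnq3 (0.097). With only 4 libraries such likeness is common: 3010 genes lay within 0.2 of Drd2 and 1741 within 0.2 of Adra2a, against 27 within 0.2 of Adrb1.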
